A study of Mus musculus with 6 samples.

Results

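B3glct encodes the enzyme of the endoplasmic reticulum that adds glucose to O-linked fucose on thrombospondin type 1 repeats. It is described here with 6 other enzymes that place or extend O-linked fucose or glucose on proteins: Pofut1, Pofut2, Poglut1 and the Fringe genes Lfng, Mfng and Rfng. The 7 genes were taken by symbol out of 53379 gene identifiers, and all 7 had enough reads to be tested. B3glct was chosen by its CPM values in the contrast of the groups below, so that difference is a description with no test, while the other 6 were listed beside it as enzymes of the same kind of modification.

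RNA was sequenced from the cerebral cortex of C57BL/6 mice aged 2 months, with 3 libraries labelled GTF2ird1-/- (replicates 5, 6 and 7) and 3 libraries labelled wild type (replicates 1, 3 and 4). Both groups share strain, age and tissue, and Gtf2ird1 encodes a transcription factor. The series title names the cells as Gad2+ neurons. How those were isolated, and which part of Gtf2ird1 is mutated, were not given in the sources used here. Separate animals are not named in the labels, and p-values therefore cover the spread among these libraries alone, part of which may be technical.

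Some properties of the libraries touch every value below. Total gene counts lay between 16685959 and 30544144 in the libraries labelled knockout and between 13627501 and 28933624 in wild type. Gtf2ird1 itself (chromosome 5, 134357656 to 134456716, minus strand) had 49.7, 40.6 and 48.8 CPM in knockout replicates 5, 6 and 7, against 23.3, 31.5 and 52.7 CPM in wild type replicates 1, 3 and 4, so the count over the whole gene does not check the labels. CPM here are gene counts scaled to a common library total, with TMM factors. Summed marker levels are instead CPM of all gene counts, without TMM factors. Against the title, 10 microglia markers together took between 27141 and 30972 CPM of all gene counts in the libraries labelled knockout and between 25084 and 37637 CPM in wild type, while 10 markers of GABAergic neurons, Gad1 and Gad2 among them, took 573.4 to 1118 CPM in the libraries labelled knockout and 189.7 to 823.6 CPM in wild type. All 10 markers of astrocytes, of oligodendrocytes and of GABAergic neurons had positive log2 fold changes, none of them called, with medians of 1.80, 1.40 and 0.53. The summed levels of astrocyte and oligodendrocyte markers were 3515 to 6996 CPM and 2025 to 2684 CPM in the libraries labelled knockout, against 303.2 to 3571 CPM and 178.0 to 2401 CPM in wild type. None of these markers was at 0 in any library. Knockout replicates 5 and 6 held Y-linked transcripts and almost no Xist, while knockout replicate 7 and all 3 wild type libraries held Xist. Ribosomal RNA took 6.77% of gene counts in knockout replicate 6, 18.6% in wild type replicate 3 and no more than 4.06% elsewhere. In RNA from many cells, fewer cells of a type and less RNA per cell cannot be told apart.

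These enzymes work in the endoplasmic reticulum and the Golgi apparatus on small folded repeats of secreted and membrane proteins. On thrombospondin type 1 repeats, POFUT2 adds fucose and B3GLCT adds glucose to that fucose, a pair of steps linked to the folding and secretion of such proteins; loss of B3GLCT in humans causes Peters plus syndrome. On EGF-like repeats, among them those of the Notch receptors, POFUT1 adds fucose and POGLUT1 adds glucose. The Fringe enzymes of the Golgi extend the O-fucose with N-acetylglucosamine and so change which ligands a Notch receptor responds to.

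Promoter windows from RefSeq (build GRCm38.p6), running from 250 bases before to 50 bases after the transcript start, were at hand for 6 of the 7 genes, Mfng being the other. The stretch before the start is shown for B3glct, since its level differed the most, and for Lfng, since it alone held a searched motif, given in capitals. The B3glct stretch is chr5:149677980-149678229 and the Lfng stretch chr5:140607091-140607319, both on the plus strand.
B3glct: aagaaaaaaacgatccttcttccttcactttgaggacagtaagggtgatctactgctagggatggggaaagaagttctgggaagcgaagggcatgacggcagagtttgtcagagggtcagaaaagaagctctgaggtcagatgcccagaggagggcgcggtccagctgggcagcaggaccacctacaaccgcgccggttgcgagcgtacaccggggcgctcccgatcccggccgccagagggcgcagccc
Lfng: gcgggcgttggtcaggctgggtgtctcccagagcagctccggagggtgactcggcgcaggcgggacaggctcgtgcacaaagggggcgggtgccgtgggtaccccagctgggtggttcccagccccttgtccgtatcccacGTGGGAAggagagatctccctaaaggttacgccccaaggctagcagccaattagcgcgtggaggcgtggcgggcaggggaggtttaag

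GGATTA, the core recognised by GTF2IRD1, was searched on both strands and was found in 0 of the 6 windows of the enzymes, in the 1 window of Gtf2ird1 itself and in 7.06% of all 32851 windows. GTGGGAA, the core recognised by RBPJ, the DNA-binding partner of Notch, was found in 1 of the 6 windows, that of Lfng, starting at position -109 from the RefSeq start, and in 6.38% of all windows. These are matches of letters in a short window and no more. The B3glct window had 62.7% G and C and 24 CpG pairs, and the Lfng window 66.7% and 22, against medians of 52.7% and 7 over all windows. The windows of Pofut1 and Rfng were richer still, at 80.3% and 77.0%, and that of Poglut1 was near the median, at 53.7%.

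B3glct (ENSMUSG00000051950.10) spans 149678230 to 149762599 on the plus strand of chromosome 5 in GRCm38, the assembly also named mm10. It had 48.4, 61.2 and 55.5 CPM in knockout replicates 5, 6 and 7, against 19.6, 14.7 and 16.8 CPM in wild type replicates 1, 3 and 4. Every library labelled knockout lay above every wild type library, with a gap of 28.8 CPM between the lowest of one group and the highest of the other. The means were 55.0 ± 6.41 CPM in the libraries labelled knockout and 17.0 ± 2.46 CPM in wild type (SD, n = 3 each), a ratio of 3.24. The values rest on 1239, 1022 and 1776 reads in the libraries labelled knockout and on 563, 162 and 294 reads in wild type, far above 3 reads, the limit that a count of 0 allows. Among 21865 protein-coding genes, B3glct stood above 80.2%, 84.0% and 82.5% of them in knockout replicates 5, 6 and 7, and above 66.4%, 63.7% and 65.2% in wild type replicates 1, 3 and 4. The gene shares no exon with another annotated gene, and no transcript of another gene matched it over 100 bases at 95% identity.

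The fitted log2 fold change of B3glct is also a description, with and without single libraries, since these libraries chose the gene. It was 1.69 ± 0.17 (SE) and ran from 1.60 to 1.80 when 1 library was left out. It was 1.70 when only the 4 libraries with Xist transcripts were kept, so that the libraries labelled knockout were represented by replicate 7 alone, and 1.51 without knockout replicate 6 and wild type replicate 3, the pair with the most ribosomal RNA. Knockout replicate 6 and wild type replicate 1 had nearly the same summed level of astrocyte markers, 3515 and 3571 CPM. Their B3glct levels were 61.2 and 19.6 CPM. This is 1 library of each group, and the pair was not alike in other markers, in Xist or in ribosomal RNA. Summed GABAergic neuron markers were 630.9 and 329.4 CPM, and summed microglia markers 30972 and 37637 CPM. Xist was at 0.18 and 1568 CPM, and ribosomal RNA at 6.77% and 0.867% of gene counts. The part of glial transcripts in the B3glct difference was not tested.

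**Figure D1:**
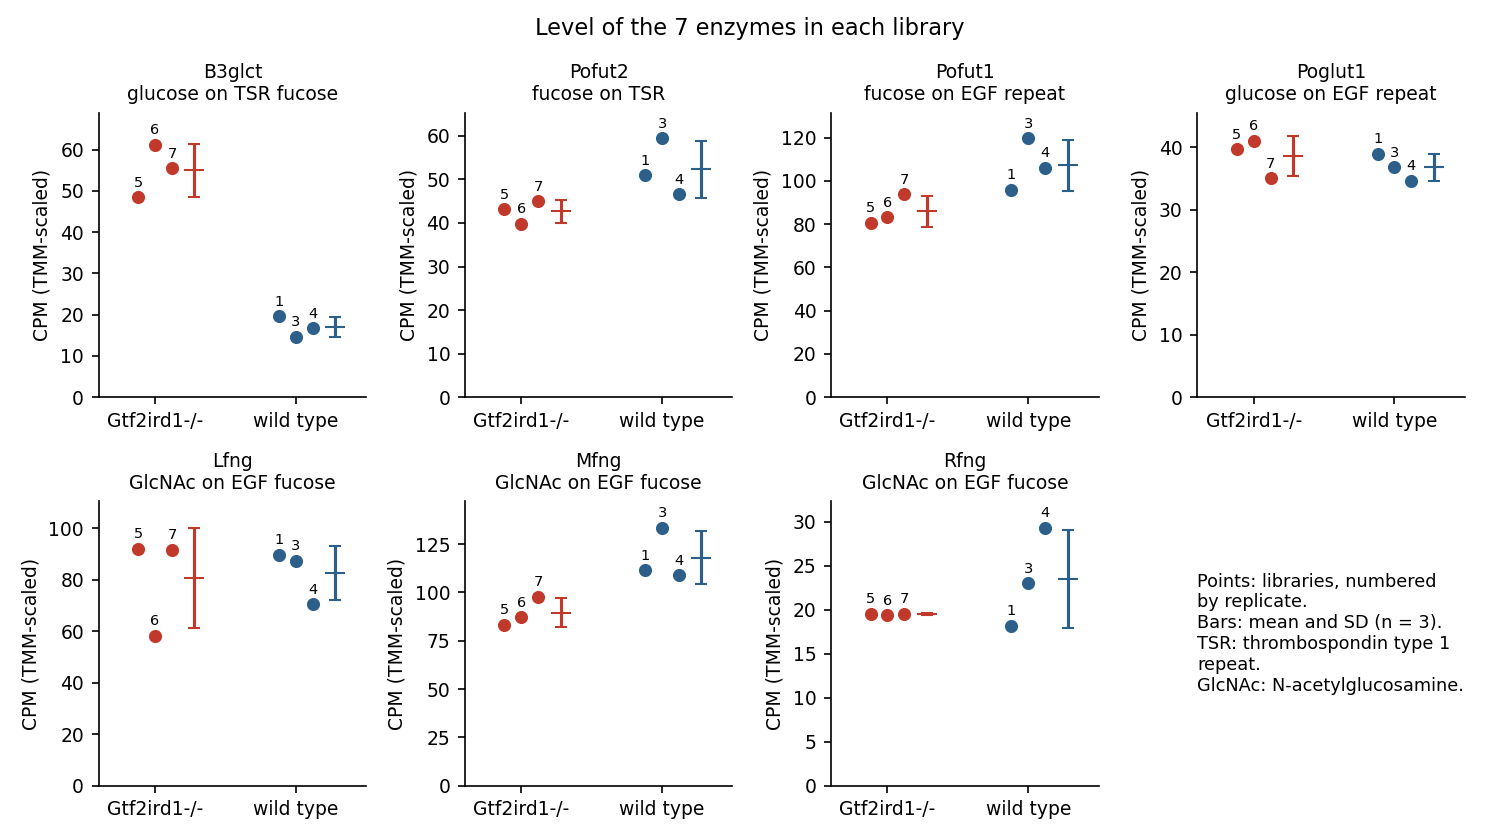
Level of each of the 7 enzymes in CPM after TMM scaling, 1 panel per gene, with libraries labelled Gtf2ird1-/- at the left and wild type at the right; points are libraries with their replicate number, and bars give mean and SD. The B3glct points of the 2 groups lie far apart (48.4 to 61.2 against 14.7 to 19.6 CPM), while those of Lfng, Rfng and Poglut1 overlap.

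The enzyme that acts just before B3glct on thrombospondin repeats had lower values in the libraries labelled knockout. Pofut2 (ENSMUSG00000020260.9; chromosome 10, 77259218 to 77269575, plus strand) had 43.2, 39.8 and 45.0 CPM in knockout replicates 5, 6 and 7, against 51.0, 59.4 and 46.6 CPM in wild type replicates 1, 3 and 4. The groups did not overlap, by a gap of 1.59 CPM, with the libraries labelled knockout lower. The log2 fold change was -0.29 ± 0.14 (SE) and did not pass (adjusted p = 0.637 by edgeR, with a 95% fold interval of 0.651 to 1.02). With library totals alone it was -0.13, or -0.25 relative to the median of all tested genes. The groups then barely stayed apart, at up to 48.0 CPM in the libraries labelled knockout and from 48.1 CPM in wild type. Per kilobase of exon, B3glct stood at 1.84, 2.52 and 2.03 times the level of Pofut2 in knockout replicates 5, 6 and 7, against 0.631, 0.405 and 0.592 times in wild type replicates 1, 3 and 4. The glucose-adding enzyme was thus the more abundant transcript of the pair in all 3 libraries labelled knockout and the less abundant in all 3 wild type libraries, also when the longest transcript gave the length (1.99 ± 0.330 and 0.507 ± 0.113; SD, n = 3 each). This ratio holds B3glct and is a description. Pofut2 shares 6 bases of exon with Gm10941 on the opposite strand, and the other 6 enzymes share none with another gene.

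Pofut1 (ENSMUSG00000046020.13; chromosome 2, 153241533 to 153270247, plus strand), the fucose-adding enzyme of EGF-like repeats, had 80.6, 83.3 and 93.9 CPM in knockout replicates 5, 6 and 7, against 96.0, 119.6 and 106.0 CPM in wild type replicates 1, 3 and 4. The libraries labelled knockout were lower without overlap, although the gap was 2.14 CPM and closed when library totals alone set the scale. The log2 fold change of -0.32 ± 0.14 (SE) did not pass (adjusted p = 0.637 by edgeR), with a 95% interval of the fold from 0.643 to 0.9999. Poglut1 (ENSMUSG00000034064.14; chromosome 16, 38525137 to 38550258, minus strand), the glucose-adding enzyme of the same repeats, had 39.6, 41.0 and 35.0 CPM in knockout replicates 5, 6 and 7, against 38.9, 36.8 and 34.6 CPM in wild type replicates 1, 3 and 4. Its groups overlapped and its range over all 6 libraries was narrow, with a log2 fold change of 0.07 ± 0.13 (SE; adjusted p = 0.876 by edgeR). The 95% interval of the fold was 0.849 to 1.29.

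Among the Fringe genes, Mfng was lower in all libraries labelled knockout and the other pair overlapped. Mfng (ENSMUSG00000018169.12; chromosome 15, 78755882 to 78773475, minus strand) had 83.3, 87.2 and 97.9 CPM in knockout replicates 5, 6 and 7, against 111.6, 133.6 and 108.8 CPM in wild type replicates 1, 3 and 4. The gap between the groups was 11.0 CPM, and the log2 fold change of -0.40 ± 0.14 (SE) did not pass (adjusted p = 0.637 by edgeR, with a 95% fold interval of 0.607 to 0.948). Lfng (ENSMUSG00000029570.5; chromosome 5, 140607320 to 140615545, plus strand) had 92.1, 58.4 and 91.8 CPM in knockout replicates 5, 6 and 7, against 89.7, 87.4 and 70.4 CPM in wild type replicates 1, 3 and 4. Knockout replicate 6 was the lowest library, and the other 5 lay between 70.4 and 92.1 CPM. Lfng had a log2 fold change of -0.03 ± 0.21 (SE, adjusted p = 0.968 by edgeR), and its sign turned positive in 6 alternative settings. Among these were the fit without knockout replicate 6 (0.16) and the scaling by library totals alone. With library totals alone the log2 fold change of Lfng was 0.13, or 0.02 relative to the median of all tested genes, which that scaling moved to 0.11. Rfng (ENSMUSG00000025158.7; chromosome 11, 120780746 to 120784207, minus strand) had 19.5, 19.4 and 19.5 CPM in knockout replicates 5, 6 and 7, against 18.2, 23.0 and 29.3 CPM in wild type replicates 1, 3 and 4. The libraries labelled knockout were almost equal and lay within the wild type range, with a log2 fold change of -0.27 ± 0.20 (SE; adjusted p = 0.690 by edgeR).

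None of the 6 enzymes beside B3glct passed the threshold of an adjusted p of 0.05, and the 1 gene that passed, or 0.00581% of the 17221 tested, was not among the 7 enzymes. DESeq2 and edgeR without a filter on low counts called none of the 6 either. DESeq2 called 0.0684% of genes higher and 0.0228% lower, and edgeR without a filter 0.013% and 0.00325%. These shares are of all 30723 genes with any read, so they are not on the scale of the 17221 above. Any gene that DESeq2 left without an adjusted p counts there as not called. At an unadjusted p under 0.05 edgeR held Pofut1 and Mfng, both lower, beside 2.77% of all tested genes as lower and 7.25% in either direction. Groups did not overlap for 4 of the 7 enzymes, against 13% of all tested genes in either direction: B3glct as higher and Pofut1, Pofut2 and Mfng as lower in the libraries labelled knockout. The shares of all tested genes were 6.34% as higher and 6.68% as lower. B3glct was chosen in this contrast and nothing is read from its part in the count. The median log2 fold change was -0.27 over the 7 enzymes and -0.03 over all tested genes. With library totals alone, the median of all tested genes moved to 0.11, and relative to it Pofut1, Pofut2, Mfng and Rfng stood at -0.28, -0.25, -0.36 and -0.25. The log2 fold changes of all 10 microglia markers were also negative, with a median of -0.27 and none called, and the part of microglial transcripts in the lower values of these enzymes was not tested.

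Levels were compared between genes as CPM per kilobase of all annotated exons. In the libraries labelled knockout the order was Lfng (32.2 ± 7.75), Mfng (31.5 ± 2.65), B3glct (11.5 ± 1.34), Pofut1 (8.67 ± 0.707), Poglut1 (8.28 ± 0.677), Rfng (7.82 ± 0.0428) and Pofut2 (5.42 ± 0.331; SD, n = 3 each). Lfng and Mfng overlapped, and Poglut1 overlapped with both Pofut1 and Rfng, while Pofut1 lay above Rfng without overlap. B3glct lay above and Pofut2 below those 3 in every library. In wild type the order was Mfng (41.6 ± 4.78), Lfng (32.9 ± 4.21), Pofut1 (10.8 ± 1.20), Rfng (9.44 ± 2.25), Poglut1 (7.89 ± 0.463), Pofut2 (6.64 ± 0.831) and B3glct (3.55 ± 0.513; SD, n = 3 each). B3glct was the lowest of the 7 in every wild type library, Mfng stood above Lfng without overlap, and each of the neighbours from Pofut1 to Pofut2 overlapped with the next. With the longest transcript as length, B3glct stayed the lowest in wild type and took the fifth place in the libraries labelled knockout, below Pofut1 (15.3 ± 1.25) without overlap and Poglut1 (13.2 ± 1.079) with overlap. Its place in those libraries thus depends on how long Pofut1 and Poglut1 are taken to be.

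**Figure D2:**
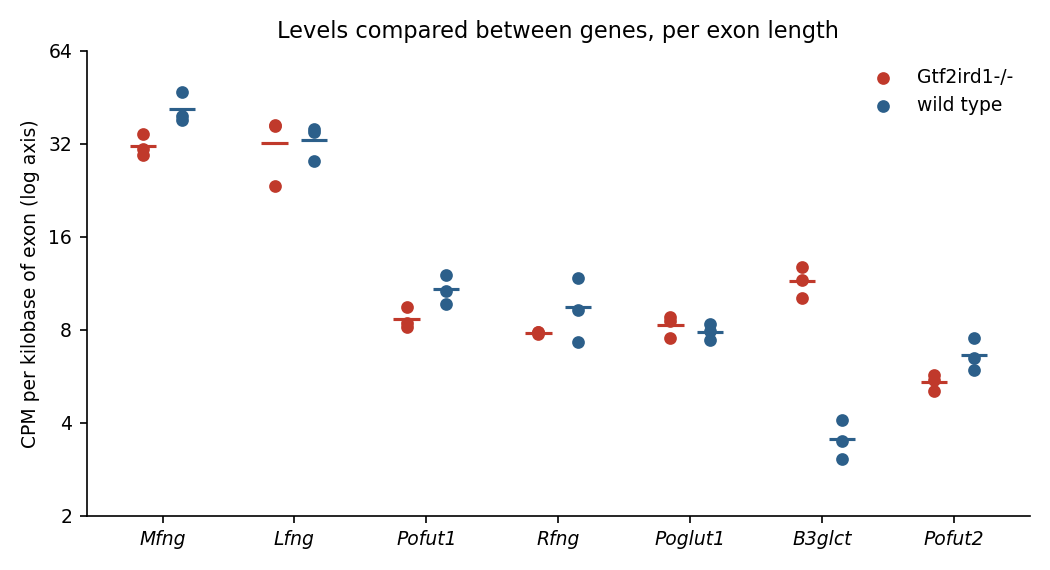
CPM per kilobase of annotated exon for the 7 enzymes on a log axis, with libraries labelled Gtf2ird1-/- left of wild type for each gene; points are libraries and lines are means. Mfng and Lfng lie above the rest in both groups, and B3glct lies at 10.1 to 12.8 in the libraries labelled Gtf2ird1-/- and at 3.06 to 4.08 in wild type.

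The 3 Fringe genes together stood at 8.26 ± 0.873 times the level of Pofut1 per kilobase in the libraries labelled knockout and at 7.79 ± 0.631 times in wild type (SD, n = 3 each). Within that sum, Lfng made up 49.7%, 37.7% and 46.4% in knockout replicates 5, 6 and 7, against 43.5%, 38.3% and 35.9% in wild type replicates 1, 3 and 4. Mfng made up 39.7%, 49.7% and 43.7% in the same libraries labelled knockout, against 47.7%, 51.6% and 49.0% in wild type. Both shares overlapped between the groups, and Rfng made up between 9.93% and 12.6% in the libraries labelled knockout and between 8.86% and 15.1% in wild type.

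The 7 genes did not vary together as a block. After each group's mean was taken off, Mfng went with Pofut1 and with Pofut2 across the 6 libraries (Pearson r of log2(CPM + 1), 0.89 and 0.84), and Pofut1 with Pofut2 at 0.64. B3glct had negative values with Pofut1, Pofut2, Lfng, Mfng and Rfng, between -0.57 and -0.34, and 0.29 with Poglut1. These are descriptions over 6 points that share a library total and its scaling.

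The 5 protein-coding genes whose log2 CPM followed B3glct most closely over the 6 libraries were Cipc, Ly75, Lrrc58, Tsr2 and Greb1l, with Pearson r of 0.99, 0.97, 0.97, 0.96 and 0.96. They were picked for following B3glct, whose groups do not overlap, so the separation of their own groups comes with the choice and is a description. Cipc, which encodes a partner of the clock protein CLOCK, had 26.5, 26.7 and 27.5 CPM in knockout replicates 5, 6 and 7, against 20.4, 19.4 and 20.2 CPM in wild type replicates 1, 3 and 4. Ly75, which encodes the endocytic receptor DEC-205, had 2.35, 2.46 and 2.12 CPM in the same libraries labelled knockout, against 0.974, 0.272 and 0.571 CPM in wild type.

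B3glct lies 15.2 Mb from Gtf2ird1 on chromosome 5, and Lfng 6.15 Mb. Within 1 Mb of B3glct there were 75 annotated genes, of which 21 were tested and 10 of these code for protein. None of the 21 passed (edgeR adjusted p of 0.05), and their median log2 fold change was -0.13, against -0.03 for all tested genes. Groups did not overlap for 0 of the 21 as higher and for 4 as lower, against 6.34% and 6.68% of all tested genes. The nearest tested gene, Hsph1, which encodes a heat shock protein and ends 41.9 kb before B3glct, had 201.1, 549.9 and 347.0 CPM in knockout replicates 5, 6 and 7, against 270.8, 357.5 and 187.7 CPM in wild type replicates 1, 3 and 4. It overlapped between the groups, at a log2 fold change of 0.43 ± 0.38 (SE; adjusted p = 0.734 by edgeR).

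On the other side, Fry, named after furry of Drosophila, begins 356.0 kb after B3glct and stood the other way. It had 67.0, 48.8 and 62.4 CPM in knockout replicates 5, 6 and 7, against 186.5, 346.7 and 372.6 CPM in wild type replicates 1, 3 and 4, a log2 fold change of -2.34 ± 0.28 (SE; adjusted p = 0.240 by edgeR). The pseudogene Gm18753, which lies within the span of Fry, on the same strand and may share reads with it, had a log2 fold change of -3.20. DESeq2 called both genes lower, edgeR without a filter on low counts called Fry, and edgeR without wild type replicate 1 called both, in a setting where 0.0866% of all genes were called lower. Of the protein-coding genes around this pair, Alox5ap, Uspl1, Hmgb1, Katnal1, Brca2 and N4bp2l1 had log2 fold changes of -0.19, -0.11, -0.13, 0.16, 0.06 and -0.07, each with overlapping groups. No gene lying between B3glct and Fry had enough reads to be tested.

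**Figure D3:**
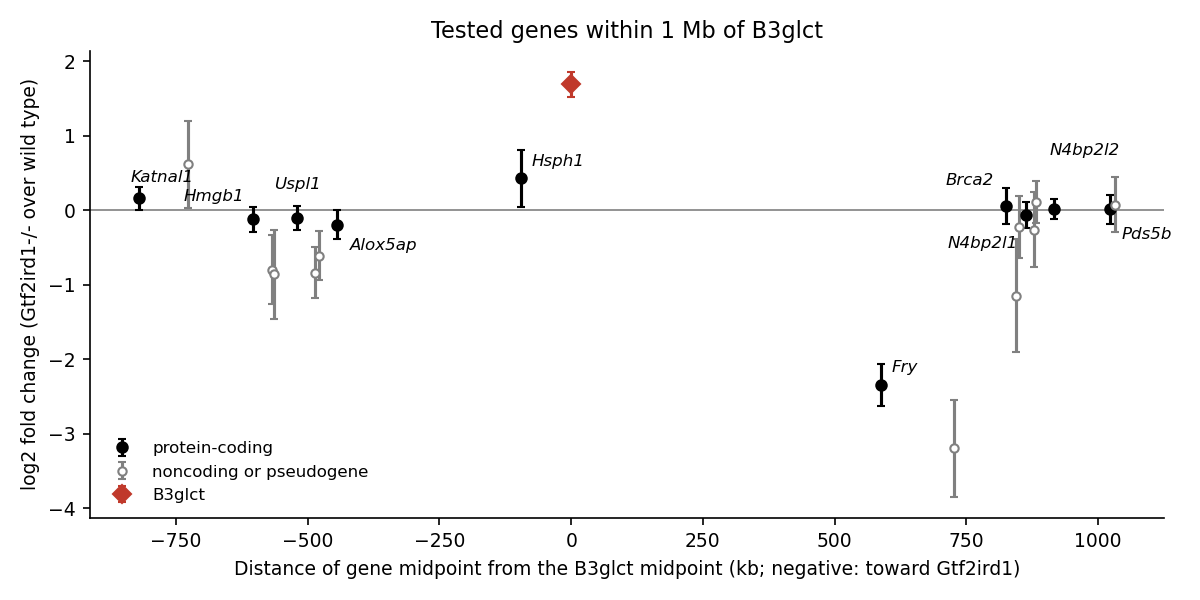
Log2 fold change, libraries labelled Gtf2ird1-/- over wild type, of the 21 tested genes within 1 Mb of B3glct against distance from its midpoint in kb; error bars are SE, filled points code for protein, open points do not, and the diamond is B3glct. B3glct at 1.69 and Fry at -2.34 lie apart from the other protein-coding genes, which stay between -0.19 and 0.43.

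Other glycosyltransferases listed for EGF-like or thrombospondin repeats showed no called change. Whether each listed gene acts on these repeats, Fut10, Fut11 and Dpy19l4 included, was not checked. Of 12 listed and tested, 0 passed in either direction, 4 log2 fold changes were positive and 8 negative, and the median was -0.10, against -0.03 over all tested genes. Dpy19l3, a mannosyltransferase of thrombospondin repeats, had 44.5, 35.9 and 40.7 CPM in knockout replicates 5, 6 and 7, against 35.7, 31.4 and 33.6 CPM in wild type replicates 1, 3 and 4, a log2 fold change of 0.27 ± 0.14 (SE; adjusted p = 0.638 by edgeR). It was higher without overlap and was the 1 gene of the list with that pattern. Fut11, B4galt1, which encodes a galactosyltransferase that can extend Fringe products, and Dpy19l4 had log2 fold changes of -0.22, -0.27 and -0.24. Fut11 and Dpy19l4 were lower without overlap, with B4galt1 and Dpy19l4 the most abundant of the list at means of 200.8 and 227.3 CPM over the 6 libraries.

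The supply of nucleotide sugars was also without a called gene, with 0 of 10 passing, 3 positive and 7 negative log2 fold changes and a median of -0.15. Slc35c2, which encodes a transporter-like protein of the secretory pathway that promotes O-fucosylation of Notch, had the smallest unadjusted p of the list. It had 53.6, 52.5 and 62.2 CPM in knockout replicates 5, 6 and 7, against 71.1, 93.0 and 78.8 CPM in wild type replicates 1, 3 and 4, lower without overlap, with a log2 fold change of -0.53 ± 0.15 (SE; adjusted p = 0.637 by edgeR). Slc35b4, a transporter of UDP-sugars, and Slc35c1, the GDP-fucose transporter of the Golgi, overlapped between the groups at -0.32 and -0.54. In the list of glycoprotein folding genes of the endoplasmic reticulum, where B3glct acts, 0 of 14 passed, 3 were positive and 11 negative, and the median was -0.12. Uggt1, which senses misfolded glycoproteins, stood at -0.26 ± 0.14 (SE; adjusted p = 0.638 by edgeR), Mogs at -0.21 and Dnajb11 at -0.22, and the abundant chaperones Canx and Calr at -0.02 and -0.12. With library totals alone the medians of these 3 lists came to 0.05, -0.01 and 0.05, still below the median of all tested genes, which that scaling moved to 0.11.

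Of 20 other members of the glycosyltransferase family that holds B3glct and the Fringes, 18 were tested and 0 passed, with 9 positive and 9 negative log2 fold changes and a median of -0.03. Chpf, a chondroitin polymerizing factor, had 12.5, 8.63 and 8.31 CPM in knockout replicates 5, 6 and 7, against 5.78, 5.62 and 3.88 CPM in wild type replicates 1, 3 and 4 (log2 fold change 0.95 ± 0.29, SE; adjusted p = 0.637 by edgeR). B3galt1 and B3galt5, which encode galactosyltransferases, stood at 1.313 and -0.47, each without overlap and in opposite directions. The abundant Chsy1 and Chpf2, of chondroitin synthesis, overlapped at -0.23 and -0.20.

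Among proteins that carry thrombospondin repeats, the possible targets of Pofut2 and B3glct, the log2 fold changes lay higher than among all genes although none was called. Of 57 listed symbols, 56 were in the files and 43 were tested, of which 0 passed, 38 were positive and 5 negative, and the median was 0.71, against -0.03 over all tested genes. Groups did not overlap for 11 of the 43 as higher and 0 as lower, against 6.34% and 6.68% of all tested genes. The expression filter asks for enough reads in 3 libraries, so some low genes were tested only through the libraries labelled knockout. Adamts5 and Rspo3, for example, had 0 reads in wild type replicate 3, and Adamtsl3 had 3. Being tested favours a positive sign for such genes, so these counts and this median are descriptions. Adamtsl3, a secreted matrix protein, had 1.60, 2.58 and 1.03 CPM in knockout replicates 5, 6 and 7, against 0.557, 0.272 and 0.571 CPM in wild type replicates 1, 3 and 4. Thsd4, also of the matrix, stood at a log2 fold change of 1.42 ± 0.42, and Adamts9, a protease known as a target of both enzymes, at 1.97 ± 0.60 (SE; adjusted p = 0.637 by edgeR for each). All 3 are low, with means between 1.10 and 4.30 CPM. The most abundant of the list, Spon1 and Adamts10, overlapped between the groups. Spon1 had 147.0, 101.8 and 71.8 CPM in knockout replicates 5, 6 and 7, against 49.0, 36.7 and 115.7 CPM in wild type replicates 1, 3 and 4. Adamts10 stood at a log2 fold change of 0.16. Cfp, which encodes properdin, a complement protein modified by B3GLCT in humans, was looked up after the values were seen. It overlapped at 15.8, 10.2 and 14.96 CPM in knockout replicates 5, 6 and 7, against 15.97, 7.52 and 10.96 CPM in wild type replicates 1, 3 and 4.

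Notch receptors and ligands, the targets of Pofut1, Poglut1 and the Fringes, were mixed. Of 10 tested, agrin included, 0 passed, 6 were positive and 4 negative, and the median was 0.22. The most abundant receptor, Notch2, had 240.7, 234.6 and 371.9 CPM in knockout replicates 5, 6 and 7, against 282.8, 468.3 and 334.4 CPM in wild type replicates 1, 3 and 4, with overlap. Notch3, a receptor of mural cells, had 17.4, 10.9 and 13.96 CPM in the same libraries labelled knockout, against 8.56, 3.35 and 2.11 CPM in wild type, higher without overlap at a log2 fold change of 1.57 ± 0.50 (SE; adjusted p = 0.637 by edgeR). The ligand genes Dll4 and Jag1 stood at 0.95 and 0.63, also without overlap, and Agrn at 0.36 with overlap.

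Notch target genes made a list of 6 with 0 called, 5 positive and 1 negative and a median of 1.56. Hes5, a repressor induced by Notch, had 13.5, 4.61 and 7.37 CPM in knockout replicates 5, 6 and 7, against 2.92, 2.45 and 0.799 CPM in wild type replicates 1, 3 and 4, a log2 fold change of 2.04 ± 0.58 (SE; adjusted p = 0.637 by edgeR). Hey2 and Heyl stood at 2.03 and 1.77, with wild type replicate 4 at 0.114 CPM for both, or 2 reads each. Wild type replicate 3 held 3 and 2 reads of them, and wild type replicate 1 held 30 and 27. Both genes had enough reads to be tested only through the libraries labelled knockout, which favours a positive sign, and both count toward the list median. Hes1 had a log2 fold change of -1.16, at 12.04, 12.1 and 15.3 CPM in knockout replicates 5, 6 and 7, against 26.1, 57.5 and 5.02 CPM in wild type replicates 1, 3 and 4. Its groups overlapped, as did those of Nrarp at 0.28. Within the target list Hes1 and Hes5 thus had opposite signs, and both spread widely among the wild type libraries.

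**Figure D4:**
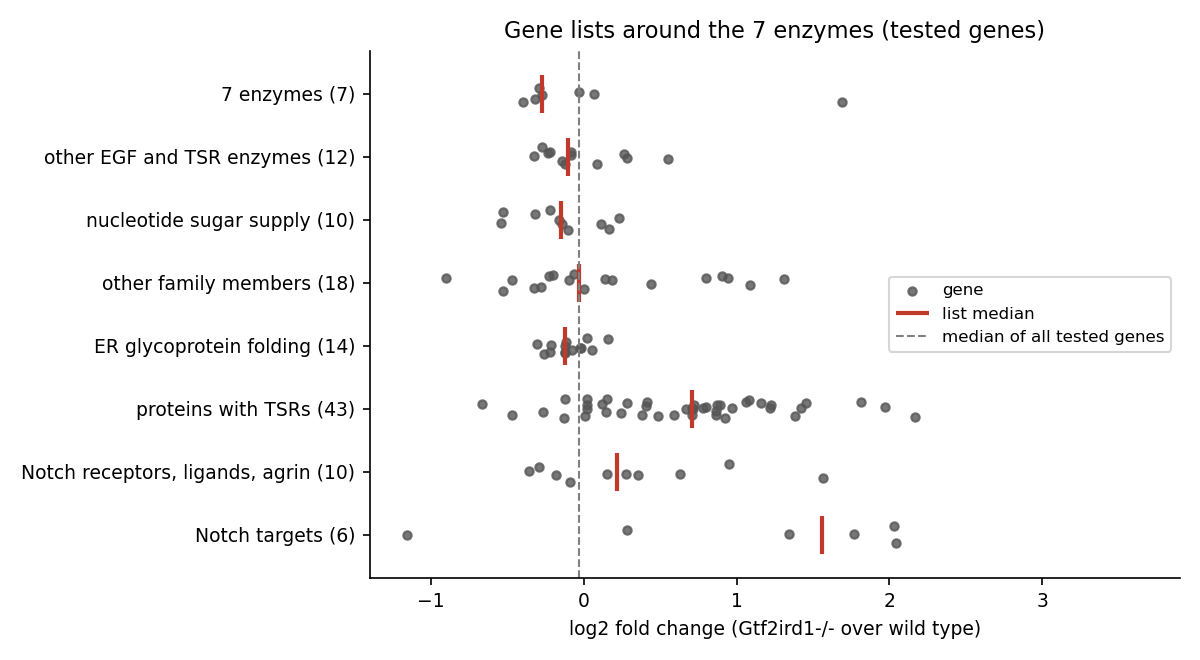
Log2 fold changes, libraries labelled Gtf2ird1-/- over wild type, of the tested genes in each list, with the number tested in brackets; points are genes, vertical lines list medians, and the dashed line the median of all tested genes. The 5 lists of enzymes and folding genes centre between -0.27 and -0.03, with B3glct alone at 1.69 in the top row, while proteins with thrombospondin repeats and Notch targets centre at 0.71 and 1.56. Some low genes in both latter lists had enough reads to be tested only through the libraries labelled Gtf2ird1-/-.

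Markers of astrocytes, oligodendrocytes, GABAergic neurons and endothelial and mural cells also had mostly positive log2 fold changes. Those of glutamatergic neurons were mixed. Of 10 such markers 9 were tested, with 6 positive and 3 negative log2 fold changes and a median of 0.10. Their sums were 77.2 to 123.0 CPM in the libraries labelled knockout and 38.5 to 121.2 CPM in wild type. The sums given above for astrocytes and oligodendrocytes overlapped between the groups through wild type replicate 1, which had 3571 CPM for astrocytes, with wild type replicates 3 and 4 at 500.02 and 303.2 CPM. For 10 endothelial and mural cell markers, 9 log2 fold changes were positive, with sums of 167.6 to 270.1 CPM in the libraries labelled knockout and 68.1 to 178.3 CPM in wild type. Wild type replicate 1 was the wild type library with the most glial transcripts, the highest total gene count (28933624) and the least ribosomal RNA (0.867%). Leaving it out brought the calls by edgeR to 4 of 43 proteins with thrombospondin repeats (Adamts4, Adamts9, Adamts20 and Ccn1). Notch3 and 2 Notch targets (Hey2 and Heyl, at 2 or 3 reads in each wild type library kept) were called too. All of these were higher, against 1.77% of all genes called higher in that setting. The part of the glial and vascular transcripts in these lists was not tested. For the 6 enzymes beside B3glct no call appeared in that setting.

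**Figure D5:**
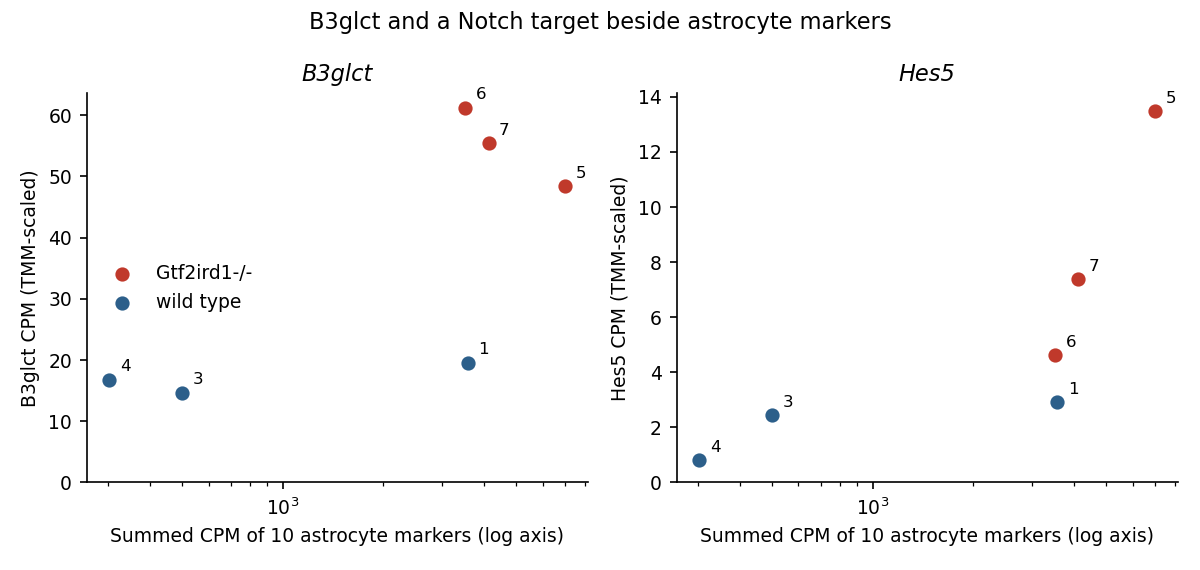
CPM of B3glct (left) and of the Notch target Hes5 (right) against the summed CPM of 10 astrocyte markers on a log axis. The marker sums are without TMM factors, while the CPM of B3glct and Hes5 are with them. Points are libraries with their replicate number, coloured by group. At nearly equal marker sums, knockout replicate 6 (3515 CPM) and wild type replicate 1 (3571 CPM) lie at 61.2 and 19.6 CPM of B3glct. For Hes5 they lie at 4.61 and 2.92 CPM. This is 1 library of each group, and their summed GABAergic neuron markers differed (630.9 and 329.4 CPM). They also differed in Xist (0.18 and 1568 CPM) and in ribosomal RNA (6.77% and 0.867% of gene counts).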

How the data were processed

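The tools listed, per the submitters' processing notes, are STAR 2.7, Trim Galore 0.60 and HTSeq 1.31, with mm10 as build. The authors deposited raw read counts for each gene and library, without normalization or pooling. The annotation release, strand setting and handling of reads with several alignments were not given in the sources used here. The 5 summary lines of each file were left out; reads in no annotated gene took 40.0% to 58.2% of all reads and ambiguous reads 1.94% to 14.5%. Names, positions and exon lengths came from GENCODE M21 (GRCm38), which matched 53274 of 53379 identifiers. Libraries of 1 group differed beyond sampling noise in every pair (chi-square per degree of freedom at least 49.8), and each counted as 1 sample. Such a difference does not show that the libraries came from separate animals.

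All genes were tested by edgeR 4.0.16 with its quasi-likelihood F-test (R 4.3.3), TMM scaling, the default expression filter and robust shrinkage. Benjamini-Hochberg adjustment was over 17221 genes, and tests were two-sided. The fit was also run on simulated data. All genes had the same dispersion there, so that run does not measure how the fit handles the uneven spread among these libraries. Fold changes are knockout over wild type, with SE from the F statistic. Intervals of folds are at 95%. Pearson r used log2(CPM + 1), over protein-coding genes with a mean of at least 1 CPM. Named genes were the 7 enzymes, from each list any called gene, the 3 smallest unadjusted p and the 2 highest levels, the 8 nearest tested protein-coding neighbours and the 5 genes most like B3glct. Transcripts were compared by BLAST at 100 bases and 95% identity. Alternatives were DESeq2 1.42.0, limma-voom 3.58.1, other scalings, filters and gene sets, and leaving out each library; 2 more were added after seeing the data. The enzymes and lists were chosen with earlier results of these data known.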

Additional observations from a re-analysis of the deposited data

How the results depend on the processing

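No paired analysis was possible because the replicate numbers are not shared between the groups. The log2 fold change of B3glct kept its sign in 12 alternatives, between 1.51 and 1.82, and in 6 that left out 1 library. So did those of Pofut1, Pofut2, Mfng and Rfng, none of which passed in a fit with more than 1 library per group. In the 12 alternatives they ran from -0.35 to -0.17, -0.32 to -0.13, -0.43 to -0.24 and -0.30 to -0.14. Each was smallest in size with library totals alone. Without 1 library they ran from -0.39 to -0.23, -0.37 to -0.19, -0.45 to -0.29 and -0.43 to -0.07. Lfng was at 0.13 with library totals alone, or 0.02 relative to the median of all genes, which that scaling moved to 0.11. It turned positive with only the 4 libraries with Xist transcripts (0.15) and without the pair richest in ribosomal RNA (0.20), and ran from -0.14 to 0.16 when 1 library was left out. Poglut1 turned to -0.075 with only the 4 libraries with Xist transcripts. The settings by Xist and by ribosomal RNA were chosen after seeing the data. By edgeR 1 gene was called higher and 0 lower, at 1249 genes with an unadjusted p under 0.05. DESeq2 called 21 higher and 7 lower, edgeR without a filter on low counts 4 and 1, edgeR on protein-coding genes 0 higher, and both added settings 0 higher, at 1048, 113 and 470 genes with an unadjusted p under 0.05. Leaving out 1 library gave 1 to 306 higher and 0 to 15 lower, the most without wild type replicate 1. The same setting gave the most called proteins with thrombospondin repeats (0 to 4), Notch receptors and ligands (0 to 1), Notch targets (0 to 2) and genes within 1 Mb of B3glct (0 to 2). For the genes within 1 Mb, DESeq2 called 2 and edgeR without a filter 1. List medians without 1 library ran from 0.44 to 0.81 for proteins with thrombospondin repeats and from 1.11 to 2.24 for Notch targets. The cause of these changes was not tested. Depth limits the low genes: 3 reads are 0.0982 to 0.220 CPM.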
